A study of Homo sapiens with 4 samples.

Results

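The 33 genes described here are known transcriptional targets of p53, followed gene by gene in HCT116 cells given siRNA against KIF26B or a control siRNA. They were taken by symbol from a list chosen with earlier results of these data known. All 33 were found among the 58735 gene identifiers of the 4 libraries. The related lists below were chosen in the same way, so shares set against all genes describe the lists and are not tests. By the known roles of their products they were sorted into 6 arms: cell-cycle arrest with 6 genes, feedback on p53 with 6, repair and nucleotide supply with 4, death receptors and apoptosis with 7, metabolism and oxidative stress with 7, and secreted or cell-surface proteins with 3.

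HCT116 cells derive from a human colorectal carcinoma. RNA was collected 48 h after transfection with control siRNA (2 libraries) or with KIF26B siRNA (2 libraries), each group numbered as replicates 1 and 2, and all 4 libraries came from the same line under the same culture conditions. KIF26B encodes a protein of the kinesin superfamily, and the study examined its part in colorectal cancer cells. The study used 2 siRNAs against KIF26B, and which of them went into which library is not stated. The headers of the KIF26B siRNA data columns carry different knockdown numbers, so replicates of a single siRNA and libraries of different siRNAs cannot be told apart. Nothing in the labels says whether the replicates were separate cultures, so the p-values measure only the spread between these libraries, which may be technical.

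The p53 protein is a transcription factor held low in unstressed cells by the ubiquitin ligase MDM2, whose own gene it activates. DNA damage, loss of ribosome balance and other stresses release it from MDM2, and it then binds response elements near its targets. Through p21, the product of CDKN1A, and the DREAM repressor complex, it also lowers many cell-cycle genes indirectly. Which arm of targets responds varies with the stress and the cell type.

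The response element is made of a pair of abutting decamers, each with a core C and G. Both strands of the 250 bases before the gene start were searched for it without a spacer, with the core bases required and up to 3 mismatches elsewhere, in RefSeq promoters of GRCh38.p14. A gene start here is that of a RefSeq transcript, and a gene with several starts was scored by its best site. Such a start can lie inside a gene that has a longer transcript, so a site need not precede the whole gene. A promoter was present for 28 of the 33 targets, and 6 of them (21.4%) held such a site, against 306 of all 27305 genes with a promoter (1.12%). With at most 2 mismatches the counts were 4 of 28 (14.3%) and 84 of 27305 (0.308%). The 6 sites are shown because they are the closest matches to this element in the windows searched. Sites with a spacer or outside these 250 bases were not looked for. The site is in capitals, with up to 20 flanking bases in lower case, on the strand of the gene.
PURPL: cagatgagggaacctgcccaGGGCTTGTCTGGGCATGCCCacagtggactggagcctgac
AEN: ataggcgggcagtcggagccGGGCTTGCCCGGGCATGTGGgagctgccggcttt
FAS: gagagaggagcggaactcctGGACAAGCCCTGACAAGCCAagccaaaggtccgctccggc
MDM2: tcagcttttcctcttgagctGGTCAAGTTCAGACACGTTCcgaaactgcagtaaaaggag
FDXR: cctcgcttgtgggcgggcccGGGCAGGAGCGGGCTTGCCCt
SESN1: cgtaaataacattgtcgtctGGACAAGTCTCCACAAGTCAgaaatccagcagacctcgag
The PURPL stretch lies at chr5:27472145-27472204 on the plus strand and its site has 0 mismatches, as in 6 of all genes with a promoter. The sites of AEN (chr15:88621286-88621339, plus strand), FAS (chr10:88991289-88991348, plus strand) and MDM2 (chr12:68808903-68808962, plus strand) have 2 mismatches each. Those of FDXR (chr17:74872995-74873035, minus strand) and SESN1 (chr6:109008998-109009057, minus strand) have 3. The distance from the first base of the site to the gene start ranged from 21 bases in FDXR to 127 in PURPL. A match describes the letters only, and a promoter without one lacks these letters in this window. Of the 6 genes with a site, PURPL and FDXR were among the targets called higher below, while FAS, AEN and SESN1 had their KIF26B siRNA libraries on opposite sides of the control mean.

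The unit of every level is FPKM, fragments per unit of exon length and of library total. The library totals behind this scaling were estimated from the values of single-exon genes and ran from 18068934 to 24673739. For 27 of the 30 targets tested the whole reads behind the values could be resolved to a single set, and they ran from 130 to 24439 reads per library. Of 8 epithelial markers, 7 exceeded a mean of 1 FPKM, and their sum was 1626 to 1748 FPKM per library. The summed fibroblast markers were 4.76 to 8.71 FPKM, leukocyte markers 0.088 to 0.494 FPKM and endothelial markers 0.073 to 0.201 FPKM. Nearly all of the fibroblast sum came from COL1A1, at 4.74 to 8.69 FPKM. Across all genes, the median absolute difference was 0.07 on the log2 scale between the control libraries and 0.28 between the KIF26B siRNA libraries.

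KIF26B itself stood at 0.110 and 0.205 FPKM with control siRNA (31 and 73 reads) and, with KIF26B siRNA, at 0.140 and 0.0307 FPKM (43 and 8 reads). Replicate 1 of the libraries labelled KIF26B siRNA lay between the controls, and only replicate 2 lay below both. Every direction given below therefore sets libraries labelled KIF26B siRNA against controls, and the values of replicate 1 are those of a library in which the targeted transcript was not lower. The median log2 difference of the tested p53 targets from the control mean was 0.25 in replicate 1 and 0.18 in replicate 2.

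As a group the p53 targets lay modestly above control. Differences were taken on the log2(FPKM + 1) scale with limma over the 14523 genes whose mean reached 1 FPKM, 30 of the 33 targets among them, and a log2 fold change is always KIF26B siRNA minus control siRNA. The median log2 fold change of the 30 targets was 0.21, against -0.01 over all genes tested. Of the targets 24 were above 0 and 6 below, against 7033 and 7490 of all genes tested. At an unadjusted P below 0.05, here the meaning of called, 6 of 30 targets (20%) were higher, against 7.74% of all genes tested. They were CDKN1A, PLK2, PURPL, XPC, FDXR and KITLG. None of the 30 was called lower, against 8.68% of all genes. PLK2 and KITLG also passed a log2 fold change of 1, that is 2 of 30 (6.67%) against 0.813% of all genes, and no target passed -1 against 0.606% of all genes. After Benjamini-Hochberg adjustment no gene passed, target or not (0% of all genes), and the lowest adjusted p in limma was 0.242. RNA from a whole culture cannot tell a change in the share of expressing cells from a change per cell.

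Both KIF26B siRNA libraries lay above both controls for 16 of the 30 targets (53.3%), a pattern of 24.9% of all genes tested. Both lay below for 3 (10%), PPM1D, POLH and PHLDA3, against 27.8% of all genes. In the remaining 11 targets (36.7%) 1 KIF26B siRNA library was above and the other below the control mean, against 36.4% of all genes. The targets above in both libraries came from each of the 6 arms. They were 3 of 6 in arrest, 4 of 6 in feedback and 2 of 4 in repair. The others were 2 of 6 tested in death receptors and apoptosis, 3 of 5 tested in metabolism and 2 of 3 among secreted and surface proteins. The arms hold too few genes to be ranked by these counts.

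**Figure D1:**
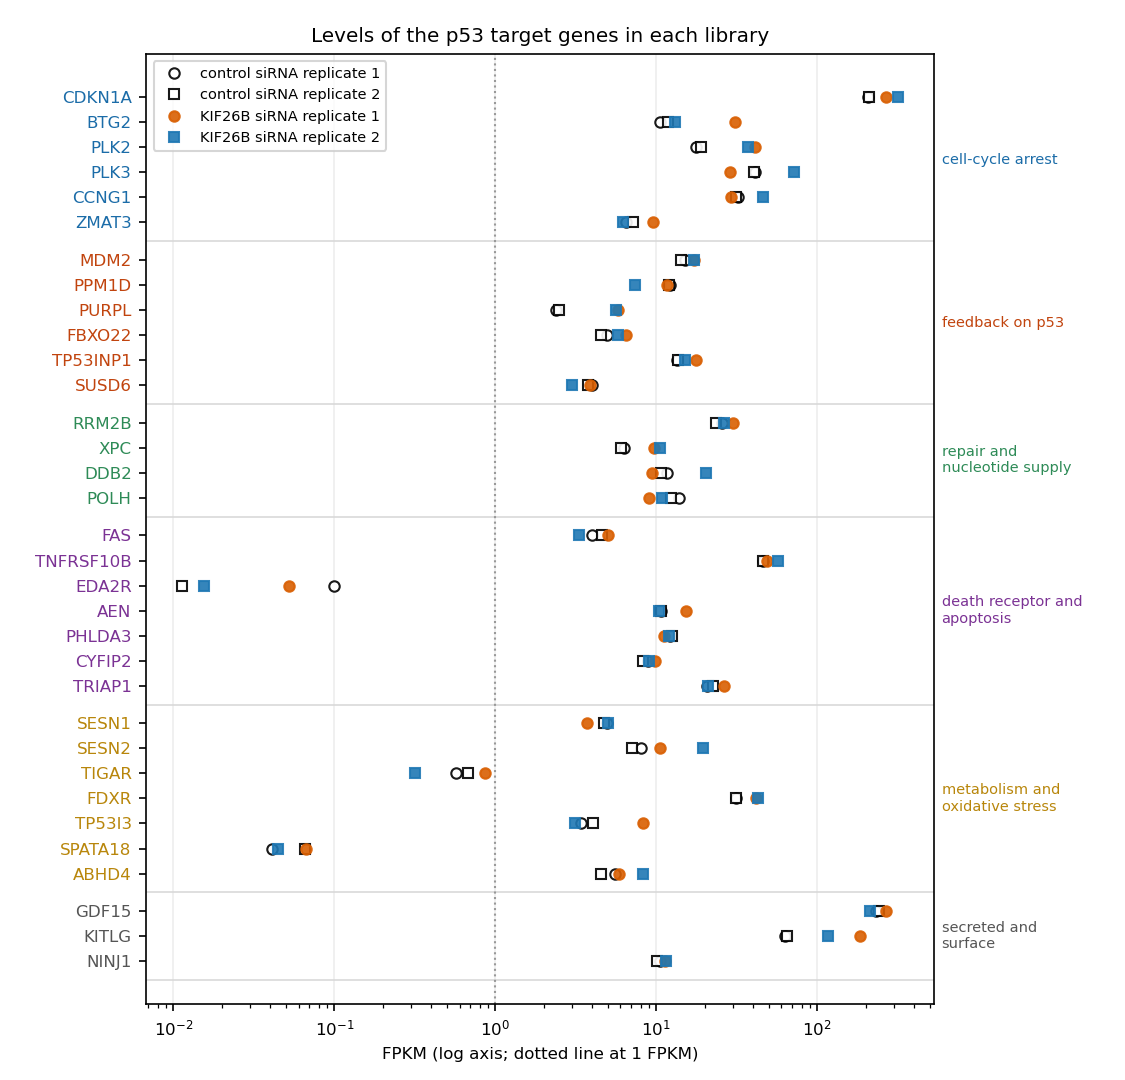
FPKM of each of the 33 p53 target genes (rows, grouped by arm) on a log axis, 1 point per library. Open symbols are the 2 control siRNA libraries and filled symbols the 2 KIF26B siRNA libraries. PLK2, PURPL, XPC and KITLG show both filled symbols well to the right of both open ones, while EDA2R, TIGAR and SPATA18 lie left of the dotted line at 1 FPKM.

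In the arrest arm the median log2 fold change was 0.34, with all 6 genes above 0. Of these 2 were called and 3 were above both controls in both libraries, against 7.74% and 24.9% of all genes tested. CDKN1A, on chromosome 6 (GRCh37 36644237 to 36655114, plus strand), encodes p21, the inhibitor of cyclin-dependent kinases that carries the p53 arrest. Its level was 206.4 and 210.5 FPKM in the controls and 267.7 and 317.9 FPKM in KIF26B siRNA replicates 1 and 2. The groups did not overlap, and both KIF26B siRNA libraries were higher. Replicate 1 was 1.28 times and replicate 2 1.52 times the control mean, and the log2 fold change was 0.48 (SE 0.14, n = 2 libraries per group; limma adjusted p 0.271). The call was lost without control siRNA replicate 1 or 2, although the log2 fold change was then 0.47 and 0.50. A fit with 1 control takes its spread from the KIF26B siRNA libraries alone, which lay further apart than the controls.

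PLK2, a polo-like kinase known as a p53-induced stress kinase, lies on chromosome 5 (GRCh37 57749809 to 57755966, minus strand). It was at 17.6 and 19.1 FPKM in the controls and at 40.9 and 37.1 FPKM after KIF26B siRNA. Both KIF26B siRNA libraries were about equally far above the controls. The mean ratio was 2.13 and the log2 fold change 1.05 (SE 0.12; limma adjusted p 0.242), and the unadjusted call held with each library left out in turn. BTG2, an antiproliferative adaptor of the mRNA deadenylation machinery, was at 10.6 and 11.8 FPKM in the controls and at 31.0 and 13.0 FPKM in KIF26B siRNA replicates 1 and 2. It was above both controls in both libraries, but nearly all of the difference came from replicate 1. The log2 fold change of 0.80 had an SE of 0.44 and was not called (limma adjusted p 0.428). It was 1.39 without replicate 2.

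The other 3 arrest genes went opposite ways in the 2 KIF26B siRNA libraries. PLK3, a stress kinase related to PLK2, differed from the control mean by -0.49 on the log2 scale in replicate 1 and by 0.81 in replicate 2. CCNG1, which encodes cyclin G1, differed by -0.12 and 0.52. ZMAT3, an RNA-binding zinc finger protein, had the reverse order with 0.44 and -0.12. Leaving out 1 KIF26B siRNA library leaves the other alone, so the log2 fold change of PLK3 was -0.49 without replicate 2 and 0.81 without replicate 1. Such a fit has no measure of the spread between KIF26B siRNA libraries.

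In the feedback arm the median log2 fold change was 0.24, with 1 of 6 genes called higher against 7.74% of all genes tested. In both libraries 4 were above both controls and 1 below, against 24.9% and 27.8% of all genes. PURPL, a long noncoding RNA reported to keep basal p53 low, lies on chromosome 5 (GRCh37 27217821 to 27497978, plus strand). The site shown above precedes the start of the shorter RefSeq transcript, which is an internal start of the gene as GENCODE draws it. Its level was 2.39 and 2.47 FPKM in the controls and 5.77 and 5.66 FPKM after KIF26B siRNA. The KIF26B siRNA libraries were nearly equal to each other and both far above the controls. The KIF26B siRNA mean was 2.35 times the control mean and the log2 fold change was 0.97 (SE 0.11; limma adjusted p 0.242), and the unadjusted call held with each library left out.

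MDM2, the ubiquitin ligase of p53, was at 15.0 and 14.2 FPKM in the controls and at 17.3 FPKM in both KIF26B siRNA libraries. It was above both controls in both libraries, by a small margin. The log2 fold change was 0.23 (SE 0.11; limma adjusted p 0.390) and was not called, but it was called when no filter on low values was used (unadjusted P in limma 0.0369). FBXO22, an F-box protein linked to degradation of p53 pathway proteins, was at 4.95 and 4.55 FPKM in the controls and at 6.53 and 5.83 FPKM after KIF26B siRNA. TP53INP1, a nuclear protein that assists p53 and autophagy, was at 13.5 and 13.6 FPKM against 17.6 and 15.2 FPKM. Both genes were above their controls in both libraries without being called in this fit (log2 fold changes 0.32 and 0.26, limma adjusted p 0.318 and 0.401). FBXO22 was called without the filter (unadjusted P in limma 0.0314) and in limma-voom (0.0325). Of the exon bases of FBXO22, 16.2% are also exon of NRG4 on the opposite strand, which averaged 0.273 FPKM.

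PPM1D, the WIP1 phosphatase that switches p53 signalling off, was the feedback gene below control. It was at 12.2 and 12.1 FPKM in the controls, at 11.6 FPKM in replicate 1 and at 7.34 FPKM in replicate 2 of KIF26B siRNA. Only replicate 2 was clearly lower. The log2 fold change was -0.36 (SE 0.24, limma adjusted p 0.501), and without replicate 1 it was -0.65. SUSD6, a membrane protein gene induced by p53, differed by 0.00 in replicate 1 and -0.29 in replicate 2.

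In the repair and nucleotide supply arm the median log2 fold change was 0.24. Of 4 genes, 1 was called higher and 2 were above both controls in both libraries, against 7.74% and 24.9% of all genes tested. XPC, the damage sensor of global genome nucleotide excision repair, lies on chromosome 3 (GRCh37 14186647 to 14220121, minus strand). It was at 6.35 and 6.01 FPKM in the controls and at 9.68 and 10.5 FPKM after KIF26B siRNA. Both KIF26B siRNA libraries were higher by a similar margin. The KIF26B siRNA mean was 1.63 times the control mean and the log2 fold change was 0.63 (SE 0.12; limma adjusted p 0.242). The call was lost without control siRNA replicate 1 or 2, at log2 fold changes of 0.66 and 0.59. The antisense gene XPC-AS1, at a mean of 0.999 FPKM, covers 24.6% of the exon bases of XPC, and since the strand setting of the counting is not stated, reads of the overlap cannot be assigned.

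DDB2, the partner of XPC in recognising ultraviolet damage, had its KIF26B siRNA libraries on opposite sides of the control mean. It differed from the control mean by -0.24 in replicate 1 and by 0.81 in replicate 2, and was not called. RRM2B, the p53-inducible subunit of ribonucleotide reductase, was above both controls in both libraries by 0.28 and 0.10. POLH, the translesion polymerase eta, was at 13.9 and 12.3 FPKM in the controls and at 9.07 and 10.9 FPKM after KIF26B siRNA. It was the repair gene below control in both libraries. Its log2 fold change was -0.36 (SE 0.15, limma adjusted p 0.332) and was not called in this fit. It was called lower in limma-voom (-0.40, unadjusted P in limma 0.0441), although its recovered reads differed with the exon length assumed.

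The death receptor and apoptosis arm held no call, against 7.74% of all genes tested called higher and 8.68% called lower. Its median log2 fold change over the 6 genes tested was 0.12. The values ran from -0.08 to 0.22, with limma adjusted p from 0.529 to 0.913. In both libraries 2 were above and 1 below both controls, against 24.9% and 27.8% of all genes. Apoptosis genes outside this arm, such as BBC3, BAX and PMAIP1, are given with the wider list below. FAS, the CD95 death receptor, was at 4.01 and 4.59 FPKM in the controls, at 5.02 FPKM in KIF26B siRNA replicate 1 and at 3.33 FPKM in replicate 2. The KIF26B siRNA libraries fell on either side of the controls. The log2 fold change was -0.05 (SE 0.21; limma adjusted p 0.913). Of the FAS exon bases, 10.7% overlap ACTA2 on the opposite strand, at a mean of 1.21 FPKM over all libraries. ACTA2 was at 0.633 and 0.599 FPKM in the controls and at 2.25 and 1.34 FPKM in KIF26B siRNA replicates 1 and 2. As for XPC, reads of the overlap cannot be assigned.

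TNFRSF10B, the TRAIL receptor DR5, was the most abundant gene of this arm and stood 0.07 and 0.30 above the control mean in replicates 1 and 2. CYFIP2, a WAVE complex subunit whose gene p53 induces, stood 0.18 and 0.07 above. Neither was called. AEN, an exonuclease of apoptotic DNA digestion, differed by 0.48 and -0.04. TRIAP1, a mitochondrial lipid transfer adaptor that limits apoptosis, differed by 0.27 and -0.03, and PHLDA3, a pleckstrin domain protein that opposes AKT, by -0.12 and -0.04. EDA2R, the ectodysplasin A2 receptor, had 7 and 1 reads in the controls and 4 and 1 after KIF26B siRNA, and was not tested.

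In the metabolism and oxidative stress arm the median log2 fold change was 0.40 over the 5 genes tested. Of these 1 was called higher and 3 were above both controls in both libraries, against 7.74% and 24.9% of all genes tested. FDXR, the mitochondrial ferredoxin reductase, lies on chromosome 17 (GRCh37 72858619 to 72869156, minus strand). It was at 31.6 and 31.4 FPKM in the controls and at 41.8 and 43.1 FPKM after KIF26B siRNA. Replicates agreed closely within both groups. The mean ratio was 1.35 and the log2 fold change 0.42 (SE 0.11; limma adjusted p 0.254). The call was lost without control siRNA replicate 1 or 2, at log2 fold changes of 0.43 and 0.42.

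SESN2, a sestrin that restrains mTORC1 when amino acids are short, was at 8.10 and 7.04 FPKM in the controls and at 10.5 and 19.5 FPKM in KIF26B siRNA replicates 1 and 2. Both libraries were higher, replicate 2 by far the more. The KIF26B siRNA mean was 1.99 times the control mean and the log2 fold change was 0.85 (SE 0.32; limma adjusted p 0.312). It was not called in this fit. It was called in limma-voom on the recovered reads (unadjusted P in limma 0.0432) and among genes at 1 FPKM or more in every library (0.0497). SESN2 is also a target of the stress factor ATF4. In a list of ATF4 and its other targets, 14 of the 15 genes tested were likewise higher in replicate 2 than in replicate 1. Over all genes this held for 7649 of the 14523 tested. The medians of the list against control were 0.70 in replicate 2 and -0.04 in replicate 1. The part of these genes in the SESN2 difference was not tested.

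ABHD4, a lipid hydrolase, was at 5.57 and 4.57 FPKM in the controls and at 5.88 and 8.32 FPKM after KIF26B siRNA. It was above both controls in both libraries, with a log2 fold change of 0.40 (SE 0.21, limma adjusted p 0.405), which was 0.62 without replicate 1. TP53I3, a quinone oxidoreductase known as PIG3, differed by 0.97 in replicate 1 and by -0.20 in replicate 2. SESN1, the sestrin with a site shown above, differed by -0.31 and 0.05. The other 2 members were under the filter: TIGAR, a fructose bisphosphatase of glucose metabolism, at 0.317 to 0.862 FPKM, and SPATA18, a mitochondrial quality control factor, at 4 to 8 reads per library.

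Among the secreted and surface proteins, KITLG had the highest log2 fold change of the 30 targets and GDF15 one of 0.00. KITLG, the ligand of the KIT receptor, lies on chromosome 12 (GRCh37 88886570 to 88974628, minus strand). It was at 63.0 and 64.9 FPKM in the controls and at 184.4 and 116.6 FPKM in KIF26B siRNA replicates 1 and 2. Both libraries were far above the controls, replicate 1 the more. The mean ratio was 2.35 and the log2 fold change 1.19 (SE 0.26; limma adjusted p 0.242), and the unadjusted call held with each library left out.

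GDF15, a secreted member of the TGF-beta superfamily and a common readout of p53 activity, was at 232.7 and 244.1 FPKM in the controls, at 268.0 FPKM in replicate 1 and at 213.0 FPKM in replicate 2. The KIF26B siRNA libraries lay on either side of both controls. The SE of its log2 fold change was 0.16 (limma adjusted p 0.993). NINJ1, a membrane protein of plasma membrane rupture, was above both controls in both libraries by 0.12 and 0.15 and was not called.

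**Figure D2:**
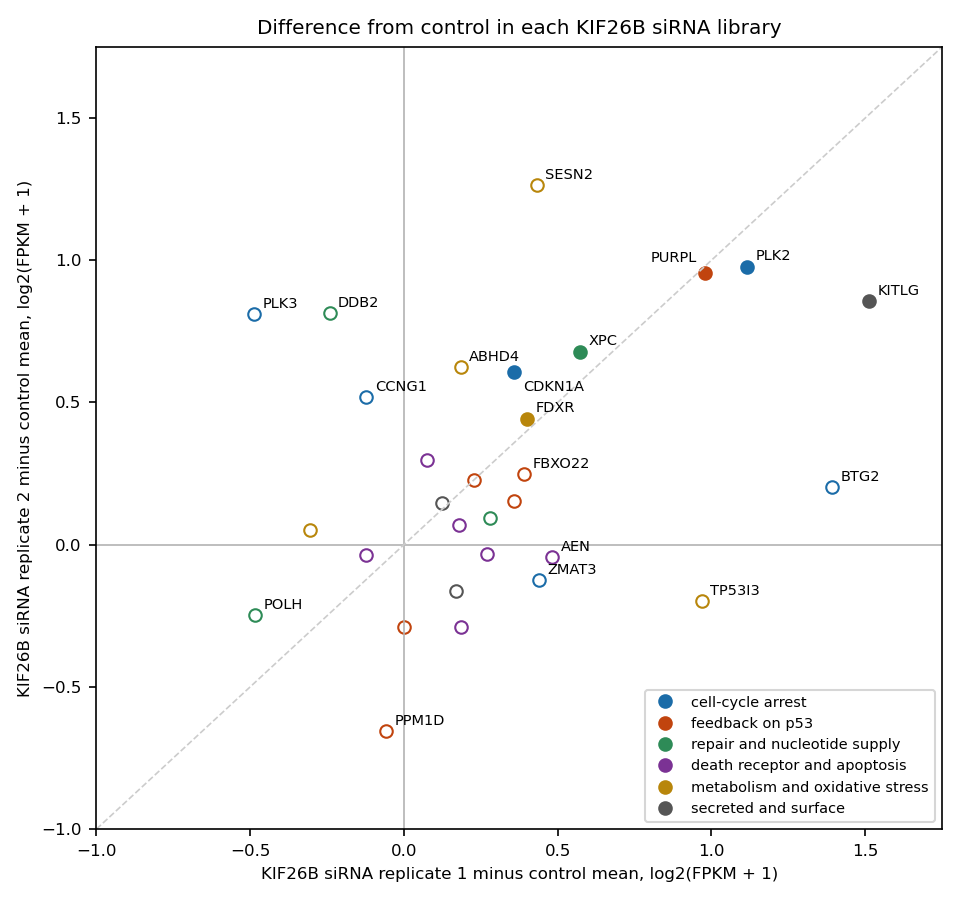
Difference of each KIF26B siRNA library from the control mean on the log2(FPKM + 1) scale, replicate 1 on the x axis and replicate 2 on the y axis, for the 30 p53 targets tested, coloured by arm. Filled points are the 6 targets called higher and the dashed line marks equal differences. The called targets sit in the upper right, PURPL, XPC and FDXR close to the dashed line, while BTG2 and TP53I3 extend along replicate 1 and PLK3 and DDB2 along replicate 2.

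The KIF26B siRNA libraries differed from each other more than the controls did. For the 30 targets the median absolute log2 difference was 0.30 between the KIF26B siRNA libraries and 0.07 between the controls. The gap was the wider one between the KIF26B siRNA libraries in 27 of 30 targets (90%), against 79.4% of all genes tested. In 10 targets (33.3%) it exceeded 0.5 on the log2 scale, against 25.9% of all genes. BTG2, ZMAT3, PPM1D, AEN, TP53I3 and KITLG were the higher in replicate 1, and PLK3, CCNG1, DDB2 and SESN2 in replicate 2. Each set of these mixed arms: arrest genes stood in both.

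A fit with 1 library left out takes its spread from the group that keeps 2 libraries. Without a KIF26B siRNA library that spread is the gap between the controls, and without a control it is the wider KIF26B siRNA gap. Calls in these fits therefore do not measure the spread of the group left with 1 library. The number of calls depended on which libraries were used. It was 3 without either control siRNA replicate 1 or control siRNA replicate 2, namely PLK2, PURPL and KITLG in both cases. It was 12 higher and 2 lower without KIF26B siRNA replicate 1, and 13 higher and 3 lower without KIF26B siRNA replicate 2. Over all genes the higher calls moved the same way, to 295, 281, 3317 and 2538 from 1124, and the lower calls to 249, 237, 3424 and 3275 from 1261. An adjusted p below 0.05 was reached only without KIF26B siRNA replicate 1, by 2254 genes and 10 of the targets, where the lone KIF26B siRNA library is assumed to vary like the controls.

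The list of p53 regulators also holds related genes such as H2AX and TP73. Of its 30 genes tested, 9 had a log2 fold change above 0 and 21 below, against 7033 and 7490 of all genes tested. Their median was -0.13. MDM4, the partner of MDM2 in holding p53 down, was at 9.93 and 9.39 FPKM in the controls and at 7.82 and 11.2 FPKM after KIF26B siRNA. Replicate 1 was below and replicate 2 above both controls. The log2 fold change of MDM4 was -0.04 with all libraries (limma adjusted p 0.925) and -0.27 without replicate 2. Of the 30 regulators, 1 was called higher and 3 lower, against 7.74% and 8.68% of all genes tested. In both libraries 4 were above and 13 below both controls, against 24.9% and 27.8% of all genes.

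A wider list of 94 other p53 targets, 82 of them tested, had a median log2 fold change of 0.13. Of the 82, 55 were above 0 and 27 below, against 7033 and 7490 of all genes tested. Among them 11 were called higher and 4 lower, against 7.74% and 8.68% of all genes. In both libraries 31 were above and 15 below both controls, against 24.9% and 27.8% of all genes. The largest called rises were BBC3, KCNN4 and LIF. BBC3, which encodes the BH3-only protein PUMA, was at 8.31 and 7.06 FPKM in the controls and at 15.9 and 23.5 FPKM after KIF26B siRNA (log2 fold change 1.23, SE 0.23; limma adjusted p 0.242). KCNN4, a calcium-activated potassium channel, was at 19.1 and 19.8 FPKM against 36.7 and 54.5 FPKM, and LIF, a cytokine, at 25.3 and 25.1 FPKM against 46.9 and 48.5 FPKM. All 3 were higher in both libraries.

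Among the other genes of the wider list, BAX, PMAIP1 and GADD45A act in death and arrest. BAX, the pore-forming effector, was at 25.7 and 25.2 FPKM in the controls and at 36.8 and 30.1 FPKM after KIF26B siRNA, above in both libraries (log2 fold change 0.37; limma adjusted p 0.324). It was not called in the limma fit above, but was called with a variance trend (unadjusted P in limma 0.0465) and in limma-voom (0.0445). PMAIP1, which encodes NOXA, was at 52.1 and 52.0 FPKM against 65.0 and 51.5 FPKM. GADD45A, a damage-induced arrest gene, was at 68.0 and 69.0 FPKM in the controls, at 51.1 FPKM in replicate 1 and at 95.6 FPKM in replicate 2. Its direction was opposite in the 2 libraries, as it was for PLK3, CCNG1 and DDB2. The log2 fold change was -0.42 without replicate 2 and 0.48 without replicate 1.

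The largest called falls of the wider list were E2F7, PGF and FUCA1. E2F7, a repressor of the E2F family, was at 11.0 and 11.1 FPKM in the controls and at 4.25 and 6.44 FPKM after KIF26B siRNA (log2 fold change -0.95; limma adjusted p 0.242). PGF, a placental growth factor, was at 2.32 and 2.22 FPKM against 1.56 and 0.928 FPKM, and FUCA1, a lysosomal fucosidase, at 33.8 and 32.7 FPKM against 25.5 and 23.5 FPKM. The calls of PGF and FUCA1 were lost without control siRNA replicate 1 (log2 fold changes -0.53 and -0.40) or replicate 2 (-0.58 and -0.45).

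Genes repressed by p53 through p21 and DREAM, most of them of the cell division machinery, were lower as a list. All 29 tested had a log2 fold change below 0, as did 7490 of the 14523 genes tested, and the median of the list was -0.61. Of the 29, 15 were called lower and 0 higher, against 8.68% and 7.74% of all genes. In 25 of 29, replicates 1 and 2 of KIF26B siRNA were each below both controls, against 27.8% of all genes, with medians of -0.71 in replicate 1 and -0.37 in replicate 2. MKI67, the proliferation antigen, was at 59.2 and 58.6 FPKM in the controls and at 27.1 and 31.4 FPKM after KIF26B siRNA. PLK1, a mitotic kinase, was at 28.3 and 30.0 FPKM against 16.4 and 15.8 FPKM, and CDC25C, a phosphatase that admits cells to mitosis, at 8.61 and 9.32 FPKM against 3.45 and 6.13 FPKM. All 3 were called lower (log2 fold changes -0.99, -0.82 and -0.82). CDC25C was not called without control siRNA replicate 1 or 2, at log2 fold changes of -0.87 and -0.77. Levels of these genes are known to follow the share of dividing cells, and the part of p53 in their difference was not tested.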

How the data were processed

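HCT116 RNA was measured in 2 control siRNA and 2 KIF26B siRNA libraries. The authors sequenced poly(A) RNA as paired-end reads and, per the submitters' processing notes, used HISAT2 2.0.5 and featureCounts 1.5.0-p3. The deposited values are FPKM, 1 per gene and library, a unit read from the values. The genome build is named differently in the study's methods (hg19) and the processing notes (hg38), and the annotation and strand setting are not given in the sources used here. Groups and replicate numbers came from the sample labels.

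Identifiers were matched to GENCODE v44 lifted to GRCh37 (56513 of 58735 had a symbol), whose coordinates are given. Promoters came from RefSeq (GRCh38.p14), matched by symbol. They were not found for FBXO22, TP53INP1, RRM2B, TNFRSF10B and PHLDA3. Whole reads were recovered from the FPKM steps (tolerance 0.02 reads) for 97.3% of the 34638 genes above 0, and 98.0% of those tested; 92.8% of those tested gave a single set of reads. limma-voom used all recovered genes, with the reads at the length nearest the annotated one.

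limma was fitted to log2(FPKM + 1) of genes whose mean reached 1 FPKM, in all 4 libraries with no covariate, with 2 residual and 2 prior degrees of freedom, and with Benjamini-Hochberg adjustment over 14523 genes. The thresholds on P (0.05) and on the log2 fold change (1) are those of the study's methods. Reads were also simulated from these means for 14018 genes. At P below 0.05, 94.8% of 96 genes given a log2 change of 1 were recovered, and 98.9% of 95 given 2. Of unchanged genes 4.98% passed. The simulation gave both groups of a gene the same spread. In the data the median absolute log2 difference was 0.073 between controls and 0.28 between KIF26B siRNA libraries, so these shares do not carry over.

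The members and all lists were chosen with earlier results of these data known, and the lists were written from general knowledge. Values in every library are given for members with P below 0.05, for those with groups that do not overlap and an absolute log2 fold change of at least 0.25, and for CDKN1A, MDM2, GDF15 and FAS. From the related lists MDM4, BBC3, BAX, PMAIP1 and GADD45A are named, with up to 3 called genes in each direction. 1 further gene that the rule names is not reported here. Alternatives were a replicate block, no filter, 1 FPKM in every library, a pseudocount of 0.1, median-of-ratios scaling, a variance trend, limma-voom on recovered reads, and leaving out each library. R 4.3.3, limma 3.58.1, Python 3.11.15, numpy 2.4.6, pandas 2.3.3, scipy 1.17.1 and matplotlib 3.10.9 were used.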

Additional observations from a re-analysis of the deposited data

How the results depend on the processing

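The median log2 fold change of the p53 targets stayed between 0.18 and 0.25 under every alternative run, and PLK2, PURPL and KITLG stayed called higher in each. The number of targets called higher was 6 to 8 under the alternatives that used all 4 libraries and ranged from 3 to 13 with 1 library left out. The number called lower ranged from 0 to 3 with 1 library left out, and was 1 (POLH) in limma-voom. Over all genes, higher calls were 281 to 3317 and lower calls 237 to 3424 with 1 library left out, and 2192 and 2186 without the filter, where 34638 genes were tested. Same-numbered libraries deviated from their group means with a correlation of -0.003 over 14523 genes, and with only 2 numbers they were not treated as pairs. With the replicate number as a block, 6 targets were called higher and 0 lower, and over all genes 864 were called higher and 861 lower, against 1124 and 1261, with the median of the targets at 0.21. Under the block FDXR (unadjusted P in limma 0.0624), TP73 (0.106), CHEK1 (0.102) and FUCA1 (0.0608) lost their call and SESN2 (0.0453) gained one. SESN2 was also called in the genes at 1 FPKM or more in every library (0.0497) and in limma-voom (0.0432). FBXO22 (0.0314) and MDM2 (0.0369) were called without the filter, FBXO22 (0.0325) and BAX (0.0445) in limma-voom, and BAX (0.0465) with a variance trend. Calls were lost by CHEK1 with a pseudocount of 0.1 (0.0533), by TP73 (0.0538) and CHEK1 (0.0512) with median-of-ratios scaling, and by PGF with a variance trend (0.0504).

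The direction of 14 single genes turned when 1 library was left out. Their log2 fold changes then ranged from -0.16 to 0.17 for GDF15, -0.29 to 0.18 for FAS, -0.12 to 0.44 for ZMAT3, -0.04 to 0.48 for AEN, -0.03 to 0.27 for TRIAP1, -0.31 to 0.05 for SESN1, -0.20 to 0.97 for TP53I3, -0.49 to 0.81 for PLK3, -0.12 to 0.52 for CCNG1, -0.29 to 0.00 for SUSD6, -0.24 to 0.81 for DDB2, -0.27 to 0.19 for MDM4, -0.01 to 0.32 for PMAIP1 and -0.42 to 0.48 for GADD45A. In all 14 the KIF26B siRNA libraries lay on opposite sides of the control mean. The cause of each gained or lost call was not tested. Of the values of single genes under the alternatives, 453 kept direction and side of the threshold, 31 gained a call, 27 lost one and 16 turned. Depth limits only the lowest members, EDA2R and SPATA18.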

Other observations

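Genes of the p53 regulator list that were called in these libraries are given here as values. Of the 30 tested, 1 was called higher and 3 lower, against 7.74% and 8.68% of all genes. RPL11, a ribosomal protein that binds MDM2 when ribosome assembly fails, was at 175.6 and 189.5 FPKM in the controls. After KIF26B siRNA it was at 258.6 and 311.1 FPKM, higher in both libraries (log2 fold change 0.63, SE 0.15, limma adjusted p 0.248). The call of RPL11 was lost without control siRNA replicate 1 or 2, at log2 fold changes of 0.58 and 0.69. RPL5, its partner in the same particle, was above both controls in both libraries but was not called, at 270.8 and 276.4 FPKM against 294.1 and 313.7 FPKM (log2 fold change 0.15; limma adjusted p 0.547). H2AX, the histone variant phosphorylated around DNA breaks, was at 131.9 and 141.1 FPKM in the controls and at 71.8 and 49.3 FPKM after KIF26B siRNA, lower in both (log2 fold change -1.18, SE 0.22; limma adjusted p 0.242). TP73, the p53 relative, was at 4.14 and 4.30 FPKM against 3.32 and 2.82 FPKM, and CHEK1, the replication checkpoint kinase that is also on the DREAM-repressed list, at 7.25 and 7.66 FPKM against 5.25 and 6.03 FPKM. TP73 and CHEK1 were called lower with all libraries (log2 fold changes -0.36 and -0.35). Neither was called without control siRNA replicate 1 (-0.38 and -0.39) or replicate 2 (-0.34 and -0.32). RPL5 was named after its values were seen.

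Of the 15 genes tested from the list of ATF4 and its targets, 1 was called higher, against 7.74% of all genes tested. This gene was TRIB3, a pseudokinase of the stress response. It was at 3.77 and 5.00 FPKM in the controls and at 8.82 and 16.3 FPKM after KIF26B siRNA (log2 fold change 1.29, SE 0.33, limma adjusted p 0.254). The call was lost without control siRNA replicate 1, at a log2 fold change of 1.12. ATF4 itself was at 69.5 and 72.5 FPKM against 86.9 and 152.3 FPKM, higher in both libraries and most in replicate 2, the order also seen in SESN2.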
